A study of Mus musculus with 6 samples.

Results

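The Notch pathway was followed through 10 genes in satellite cells (SCs), the stem cells of skeletal muscle. They were the receptors *Notch1*, *Notch2* and *Notch3*, the ligands *Dll1* and *Jag1*, the transcriptional regulators *Hes1*, *Hes6*, *Hey1* and *Heyl*, and the Notch antagonist *Numb*. The genes were taken by name from a table of 55416 genes, and all 10 were present with 1 row each. RNA sequencing gave 6 libraries, 3 from SCs of WT mice and 3 from SCs of *Ltf*-KO mice. The knockout removes a stretch of exons of *Ltf*, which encodes lactoferrin, an iron-binding glycoprotein of milk and other secretions. The deletion was made with CRISPR-Cas9 in C57/BL6N zygotes and is systemic, so every cell of the animal carries it, and not the SCs alone. The study's methods place mice at a young adult age unless stated otherwise, and the labels give neither age nor sex. Cells of digested hind leg muscle were flow-sorted as Sca1-, CD11b-, CD34+ and α7-integrin+ and grown on Matrigel with serum, chick embryo extract and basic fibroblast growth factor. Both genotypes received the same medium, no further treatment, and were harvested after 4 days. The libraries therefore show SCs after activation and expansion in culture, not SCs at rest in muscle.

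Notch signaling passes between neighbouring cells. A ligand of the Delta or Jagged family on the surface of a cell binds a Notch receptor on the next, the receptor is cut by an ADAM protease and by γ-secretase, and its intracellular part enters the nucleus to form an activating complex with RBPJ and a Mastermind protein. Its best known targets are the Hes and Hey genes, which encode basic helix-loop-helix repressors. In SCs the pathway is known for holding the cells in quiescence and for opposing *Myod1*-driven differentiation, with *Hey1* and *Heyl* among its main effectors there. *Hes6* stands apart from the other family members, since its protein counteracts *Hes1* and accompanies the onset of muscle differentiation. *Numb* encodes an adaptor that promotes removal of Notch receptors from the membrane and is inherited unequally by daughter cells.

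The values are TPM (transcripts scaled to a common total), in which the reads of a gene are divided by its length and every library is brought to the same sum. Levels of different genes can therefore be compared, but how many reads support a value cannot be seen. The libraries summed to 993650 to 994356 TPM and held 12828 to 12951 genes at 1 TPM or more. Pearson correlations of log2(TPM + 1) across genes, which are not independent replicates, were 0.973 to 0.978 within a genotype and 0.972 to 0.977 between genotypes. *Ltf* itself was listed at 0.02 to 0.12 TPM in WT and at 0 to 0.03 TPM in *Ltf*-KO libraries, too low in both to check the genotype. Muscle precursor identity was clear in all libraries. *Myod1*, the determination factor of the lineage, averaged 779 ± 29.0 TPM (SD, n = 6), the acetylcholine receptor subunit *Chrna1* 516.5 ± 6.49 TPM and *Pax7*, the defining SC factor, 40.3 ± 2.52 TPM. Markers of other cell types were mostly low but not all at the floor. The highest, *Cspg4* of the smooth muscle and pericyte list, averaged 35.0 ± 3.64 TPM, and its range overlapped that of *Pax7*. A mean of 1 TPM or more was reached by 4 of 8 fibroblast markers. Among leukocyte markers *Ptprc*, *Adgre1* and *Itgam* averaged under 0.1 TPM each and *Csf1r* 0.127 TPM, while *Cd14* and *Cd68* were above 1 TPM, as were 4 of 6 endothelial and all 5 Schwann cell markers. The labels do not say whether libraries of a genotype came from separate animals or cultures, so p-values measure the spread between these libraries, which may be technical. In bulk RNA, fewer cells of a type and less RNA per cell cannot be told apart.

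The 10 genes covered a 163-fold range of levels. *Hes6* stood first at 463.3 ± 27.8 TPM (mean ± SD over the 6 libraries), 7.88-fold above *Hes1* at 58.8 ± 2.65 TPM. *Dll1* followed at 24.0 ± 1.64 TPM and *Notch2* at 15.9 ± 0.484 TPM. The ranges over libraries of these 4 genes did not overlap with each other. *Numb* at 13.4 ± 2.0 TPM overlapped with *Notch2* above it and with *Jag1* at 11.95 ± 1.99 TPM below it. *Jag1*, *Notch1* at 8.76 ± 1.16 TPM and *Notch3* at 8.05 ± 1.17 TPM formed a further run of neighbours whose ranges overlapped. The canonical effectors *Hey1* at 3.45 ± 0.429 TPM and *Heyl* at 2.835 ± 1.01 TPM came last, did not differ from each other beyond their spread, and lay below the range of *Notch3*. The order thus placed the antagonist *Hes6* first and the SC effectors *Hey1* and *Heyl* last, with *Hes1* 17.0-fold above *Hey1*.

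**Figure D1:**
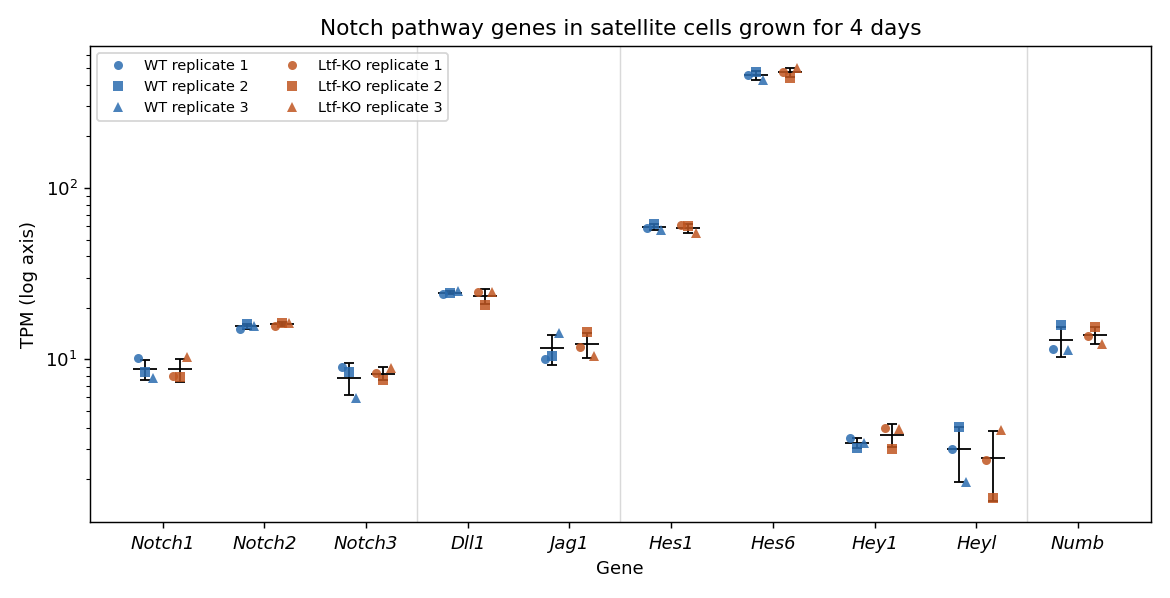
TPM on a log axis of the 10 Notch pathway genes in each of the 6 libraries, grouped as receptors, ligands, transcriptional regulators and *Numb*, with WT in blue, *Ltf*-KO in orange, and the mean and SD of the 3 libraries of a genotype as black lines. *Hes6* lies between 425.16 and 501.55 TPM, *Heyl* between 1.55 and 4.05 TPM, and the WT and *Ltf*-KO points of every gene overlap.

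Because *Hes6* carried most of the Hes and Hey RNA, the sequence before its start is shown, and it is set beside that of *Dll1*, the more abundant of the ligands among the 10. RefSeq (GRCm38.p6) gave windows of the 250 bases before an annotated start for 7 of the 10 genes, 11 windows in all, with none held for *Hes1*, *Hey1* and *Heyl*. The first *Hes6* window lies at chr1:91414039-91414288 and the second, before an internal start, at chr1:91413223-91413472. Of 2 *Dll1* windows, the upstream one at chr17:15376933-15377182 is shown. The other, at chr17:15375824-15376073, holds 153 exonic bases and no match to the letters below. The 3 windows shown are read 5′ to 3′ on the minus strand and hold no annotated exon of their own gene. Exons of other genes were not checked. The windows carry in capitals the letters CAGCTG, a form of the E-box bound by MyoD-type factors.

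Hes6 window 1: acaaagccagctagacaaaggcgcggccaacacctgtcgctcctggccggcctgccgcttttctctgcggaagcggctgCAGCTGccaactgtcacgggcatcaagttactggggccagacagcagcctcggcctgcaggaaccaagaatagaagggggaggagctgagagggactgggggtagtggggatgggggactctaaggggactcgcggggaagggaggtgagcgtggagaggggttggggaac
Hes6 window 2: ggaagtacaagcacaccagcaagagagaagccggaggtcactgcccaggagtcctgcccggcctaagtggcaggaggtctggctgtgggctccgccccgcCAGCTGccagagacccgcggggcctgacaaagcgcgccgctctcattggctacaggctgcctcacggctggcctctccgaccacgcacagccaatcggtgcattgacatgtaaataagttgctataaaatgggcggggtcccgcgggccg
Dll1 window 2: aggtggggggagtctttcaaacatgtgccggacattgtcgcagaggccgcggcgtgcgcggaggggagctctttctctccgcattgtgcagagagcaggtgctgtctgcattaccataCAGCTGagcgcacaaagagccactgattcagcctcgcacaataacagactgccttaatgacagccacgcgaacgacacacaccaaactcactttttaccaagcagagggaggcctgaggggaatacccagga

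Counted from the start, with -1 as the base before it, the capitals begin at -171 and -150 for *Hes6* and at -132 for *Dll1*. CAGCTG, which reads the same on both strands, occurred in 4 of the 11 windows, the fourth belonging to *Jag1* at -82. That window holds 124 exonic bases of *Jag1*, and the match lies among them. CAGCTG occurred in 13% of all 32851 RefSeq windows of this length. The core letters of the RBPJ site, TGGGAA or TTCCCA on the other strand, occurred in 0 of the 11 windows and in 21.6% of all windows. The 2 motifs can share the letters TG, but no window of the 10 genes held both, and a match of letters is a description of the sequence, not a bound site. Coordinates in this text are on GRCm38, whereas the labels list GRCm39 for the deposited files, and none were converted.

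To ask whether loss of *Ltf* altered Notch pathway RNA, *Ltf*-KO was compared with WT by limma on log2(TPM + 1) across the 12956 genes averaging 1 TPM or more over the 6 libraries, a filter that all 10 genes passed. No difference among the 10 passed the test. Of these genes, 0 had an adjusted p under 0.05 (Benjamini-Hochberg over all genes tested), against 0% of all genes. At an unadjusted p under 0.05 there were also 0 of 10, against 3.78% of all genes (490), and 0 of 10 had libraries that did not overlap between genotypes, against 8.46% of all genes (1096). Mean levels were higher in *Ltf*-KO for 6 genes and lower for 4, and the ratio of *Ltf*-KO to WT means ran from 0.89 for *Heyl* to 1.12 for *Hey1*. The median log2 fold change of the 10 genes was 0.05, beside 0.01 for all genes tested. Unadjusted p-values of the 10 ran from 0.37 to 0.982 by limma, and the adjusted p of each was 0.999.

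Among the receptors, *Notch1* (chr2:26457903-26516663, minus strand), the receptor most studied in muscle stem cell renewal, was measured at 10.13, 8.40 and 7.77 TPM in WT and at 8.0, 7.94 and 10.33 TPM in *Ltf*-KO libraries. WT replicate 1 and *Ltf*-KO replicate 3 were high and the other 4 libraries close together, so each genotype held a high library. Means were 8.77 ± 1.22 and 8.76 ± 1.36 TPM (SD, n = 3), and the log2 fold change was -0.0031 with a 95% confidence interval of -0.32 to 0.31. *Notch2* (chr3:98013527-98150361, plus strand), which shares quiescence functions with *Notch1*, was the most abundant receptor, at 15.12, 16.13 and 15.66 TPM in WT and 15.61, 16.39 and 16.27 TPM in *Ltf*-KO libraries. It was also the steadiest receptor, with coefficients of variation of 3.23% in WT and 2.61% in *Ltf*-KO. Its log2 fold change was 0.04 (-0.09 to 0.17), the narrowest interval of the 10. *Notch3* (chr17:32120820-32166852, minus strand), which is described as restraining SC proliferation and is also a pericyte marker, was at 9.07, 8.47 and 5.95 TPM in WT and 8.31, 7.55 and 8.97 TPM in *Ltf*-KO libraries. WT replicate 3 alone lay below the rest, and all *Ltf*-KO values fell between the WT extremes. On the log2 scale the difference was 0.09 (-0.28 to 0.45), and -0.08 without WT replicate 3.

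Taken as a family, the receptors summed to 32.8 ± 2.51 TPM in WT and 33.7 ± 2.07 TPM in *Ltf*-KO. *Notch2* gave 47.9% ± 4.39 of that sum in WT and 47.8% ± 2.84 in *Ltf*-KO, *Notch1* 26.7% ± 2.15 and 25.9% ± 2.38, and *Notch3* 23.7% ± 3.37 and 24.5% ± 1.03. *Notch4*, known mostly from endothelium, lay between 0.42 and 0.86 TPM in the 6 libraries and was not tested. The make-up of the receptor pool therefore differed between genotypes by less than its spread between libraries.

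Of the ligands, *Dll1* (chr17:15367354-15376872, minus strand), the Delta ligand of activated myogenic cells, was at 24.24, 24.47 and 24.98 TPM in WT and 24.90, 20.72 and 24.75 TPM in *Ltf*-KO libraries. *Ltf*-KO replicate 2 was low and the other 5 libraries lay within a narrow band, which gave coefficients of variation of 1.54% in WT and 10.1% in *Ltf*-KO. The log2 fold change was -0.07 (-0.26 to 0.12), and 0.01 without that library. *Jag1* (chr2:137081456-137116644, minus strand), a Jagged ligand found on myogenic, endothelial and other cells, was at 10.05, 10.54 and 14.28 TPM in WT and 11.87, 14.50 and 10.46 TPM in *Ltf*-KO libraries. Each genotype had a high library, WT replicate 3 and *Ltf*-KO replicate 2, and the groups overlapped over nearly their whole range. Its log2 fold change was 0.08 (-0.31 to 0.46), and it turned to -0.04 when *Ltf*-KO replicate 2 was left out and to -0.01 when WT replicate 1 was.

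The most abundant ligand was not among the 10. *Jag2* (chr12:112907819-112929776, minus strand), the second Jagged ligand, was at 57.17, 49.62 and 53.40 TPM in WT and 43.77, 43.78 and 46.03 TPM in *Ltf*-KO libraries. Every *Ltf*-KO value lay below every WT value, with means of 53.4 ± 3.78 and 44.5 ± 1.30 TPM (SD, n = 3). The log2 fold change was -0.25 (-0.40 to -0.11) with an unadjusted p of 0.00463 by limma, but the adjusted p was 0.999, so *Jag2* did not pass the test. Over the 12 other fits its log2 fold change ran from -0.306 to -0.205, its unadjusted p from 0.00209 to 0.0182 and its adjusted p from 0.946 to 1. *Jag2* made up 59.5% ± 2.64 of the summed ligand TPM in WT and 55.4% ± 1.20 in *Ltf*-KO, *Dll1* 27.4% ± 1.30 and 29.2% ± 2.59, and *Jag1* 12.9% ± 2.23 and 15.3% ± 2.77. The ligand sum was 91.55, 84.71 and 93.03 TPM in WT and 80.68, 79.14 and 81.27 TPM in *Ltf*-KO libraries, each *Ltf*-KO sum below each WT sum. *Jag2* gave 54.3% to 62.4% of the sum in each library, and *Dll1* and *Jag1* overlapped between genotypes. The order of the sums is therefore not a result apart from *Jag2*. *Dll4* lay between 0.03 and 0.23 TPM, and *Dll3* was at 0.02, 0.05 and 0.14 TPM in WT and listed at 0 in the *Ltf*-KO libraries.

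**Figure D2:**
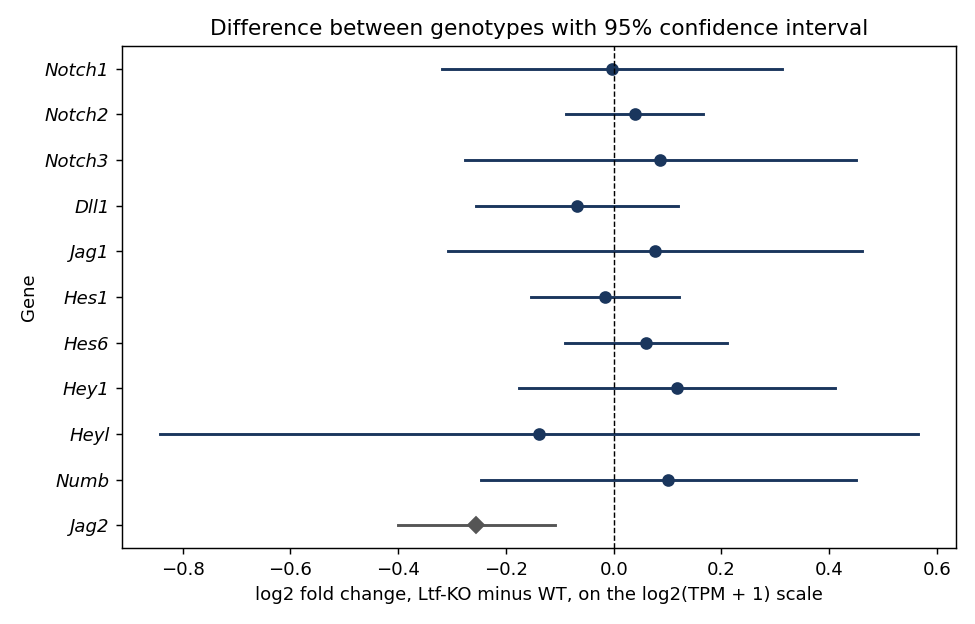
Difference between *Ltf*-KO and WT in log2(TPM + 1) by limma for the 10 Notch pathway genes (blue circles) and *Jag2* (grey diamond), with 95% confidence intervals as horizontal lines and no difference as the dashed line. The intervals of the 10 genes all include 0, with *Notch2* narrowest and *Heyl* widest, and that of *Jag2* runs from -0.40 to -0.11 before adjustment.

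Of the transcriptional regulators, *Hes1* (chr16:30064384-30067796, plus strand), the canonical Notch target, was at 58.47, 61.62 and 57.12 TPM in WT and 61.07, 59.78 and 54.53 TPM in *Ltf*-KO libraries. The libraries were interleaved, with WT replicate 2 highest and *Ltf*-KO replicate 3 lowest. Its log2 fold change was -0.02 (-0.15 to 0.12). *Hes6* (chr1:91411483-91414038, minus strand) was at 458.62, 477.30 and 425.16 TPM in WT and 477.17, 440.07 and 501.55 TPM in *Ltf*-KO libraries. *Ltf*-KO replicate 3 was highest and WT replicate 3 lowest, with the other 4 between them in mixed order. The means were 453.7 ± 26.4 and 472.9 ± 31.0 TPM, and the log2 fold change was 0.06 (-0.09 to 0.21).

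*Hey1* (chr3:8663359-8667256, minus strand), a repressor needed together with *Heyl* to keep SCs undifferentiated, was at 3.50, 3.04 and 3.24 TPM in WT and 3.99, 3.01 and 3.92 TPM in *Ltf*-KO libraries. The high values were *Ltf*-KO replicates 1 and 3, but *Ltf*-KO replicate 2 was the lowest of all. The log2 fold change of 0.12 (-0.18 to 0.41) was the largest positive value of the 10, and 0.22 without *Ltf*-KO replicate 2. *Heyl* (chr4:123233556-123249875, plus strand) was at 3.02, 4.05 and 1.93 TPM in WT and 2.58, 1.55 and 3.88 TPM in *Ltf*-KO libraries. Both genotypes spanned nearly the same range, and the highest library was 2.61-fold above the lowest. Its coefficients of variation of 35.3% and 43.7% exceeded the medians of 14.1% for WT and 14.1% for *Ltf*-KO among genes of 1 to 10 TPM. The log2 fold change of -0.14 (-0.84 to 0.56) thus had the widest interval of the 10, and a sizeable change in either direction was not detectable. It was 0.10 when *Ltf*-KO replicate 2 was left out and 0.05 when WT replicate 2 was. Low TPM also understates fold changes on the log2(TPM + 1) scale.

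The Hes and Hey genes together summed to 519.6 ± 29.5 TPM in WT and 538.2 ± 30.2 TPM in *Ltf*-KO. *Hes6* gave 87.3% ± 0.206 of that sum in WT and 87.8% ± 0.919 in *Ltf*-KO, and *Hes1* 11.4% ± 0.287 and 10.9% ± 1.12. *Hey1* and *Heyl* each gave under 1%. Of 5 further family members 0 reached the filter. *Hey2*, the highest of them, lay between 0.34 and 0.60 TPM, and *Hes2*, *Hes3*, *Hes5* and *Hes7* were at 0.19 TPM or less in every library. *Hes5*, a strong Notch target in neural progenitors, was at 0.17, 0.12 and 0 TPM in WT and 0.06, 0 and 0 TPM in *Ltf*-KO libraries.

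*Numb* (chr12:83794034-83921934, minus strand) was at 11.49, 15.95 and 11.35 TPM in WT and 13.68, 15.51 and 12.32 TPM in *Ltf*-KO libraries. WT replicate 2 was the highest library of all and the other WT libraries were the lowest, so the genotypes overlapped. The genotypes differed by 0.10 on the log2 scale (-0.25 to 0.45), and without WT replicate 2 it was 0.25 with an unadjusted p of 0.0574 by limma. *Numb* made up 46.7% ± 5.14 of the summed *Numb* and *Numbl* TPM in WT and 47.1% ± 2.92 in *Ltf*-KO, so the paralog *Numbl* was present at a like level. Reads of *Notch1*, *Notch3*, *Dll1* and *Numb* may include those of annotated genes on the opposite strand with shared exonic bases, and reads of *Notch2* those of *Gm42820* on its own strand. Whether counting used strand is not given in the sources used here.

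The rest of the pathway was taken from 8 lists by role, 67 genes in all, of which 53 passed the filter. Of these 53, 31 were higher in *Ltf*-KO and 22 lower, with a median log2 fold change of 0.02 and 0 genes at an adjusted p under 0.05. *Jag2* was the 1 gene at an unadjusted p under 0.05. Besides *Jag2*, the genes whose libraries did not overlap were the co-repressor *Ncor1* and *Pofut1*, which adds fucose to the receptors. Their log2 fold changes were 0.08 and 0.06, with unadjusted p of 0.0885 and 0.281 by limma. These 3 of 53 compare with the 8.46% of all genes given above.

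The machinery for sending and receiving the signal was well represented. Among 10 genes of ligand activation and receptor modification, 8 were tested, 4 higher and 4 lower, led in level by the receptor-processing protease *Furin* at 71.7 ± 2.76 TPM (SD, n = 6). *Mib1*, the ubiquitin ligase that ligands need to signal, was at 31.9 ± 1.28 TPM. The fringe glycosyltransferases *Lfng* and *Rfng* averaged 6.64 and 9.75 TPM, while *Mfng* stayed at 0.08 TPM or less. For receptor cleavage, 8 of 9 genes were tested, 5 higher and 3 lower, and *Psenen*, a γ-secretase subunit, led at 101 ± 3.17 TPM, with the protease *Adam10* at 42.5 ± 1.65 TPM. All 9 genes of the nuclear complex were tested, 5 higher and 4 lower, with *Snw1* at 61.1 ± 1.74 TPM and *Rbpj*, the DNA-binding partner of Notch, at 52.5 ± 2.52 TPM. *Rbpj* had a log2 fold change of -0.01 (-0.16 to 0.13).

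All 12 co-repressor genes were tested, 9 higher and 3 lower with a median of 0.04, and *Ctbp1* was the most abundant at 127.6 ± 2.70 TPM. Of 10 negative regulators and turnover genes 8 were tested, 3 higher and 5 lower, with the Deltex ligase *Dtx3* highest at 26.7 ± 1.30 TPM. *Nrarp*, a feedback target of Notch, lay between 0.12 and 0.43 TPM. Of 6 genes described as Notch targets in SCs, 5 were tested, 3 higher and 2 lower. *Pax7* and the collagen gene *Col5a1*, at 28.3 ± 2.29 TPM, were the highest of them, while the quiescence gene *Calcr* was at 0.03, 0.07 and 0.04 TPM in WT and listed at 0 in the *Ltf*-KO libraries. The Kyoto Encyclopedia of Genes and Genomes (KEGG) Notch pathway of the deposited table, which holds 9 of the 10 genes and not *Hes6*, gave a like count. Of its 54 genes 44 were tested, 24 higher and 20 lower with a median of 0.01, and *Jag2* and *Dvl2* had an unadjusted p under 0.05, which is 2 of 44 beside 3.78% of all genes. *Dvl2*, a Wnt pathway adaptor named here after its values were seen, was at 17.72, 17.26 and 19.01 TPM in WT and 20.79, 21.15 and 18.88 TPM in *Ltf*-KO libraries. Its log2 fold change was 0.16, with an unadjusted p of 0.0451 and an adjusted p of 0.999 by limma. The unadjusted p did not stay under 0.05 with a replicate block or without WT replicate 1, WT replicate 2, *Ltf*-KO replicate 1 or *Ltf*-KO replicate 2.

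**Figure D3:**
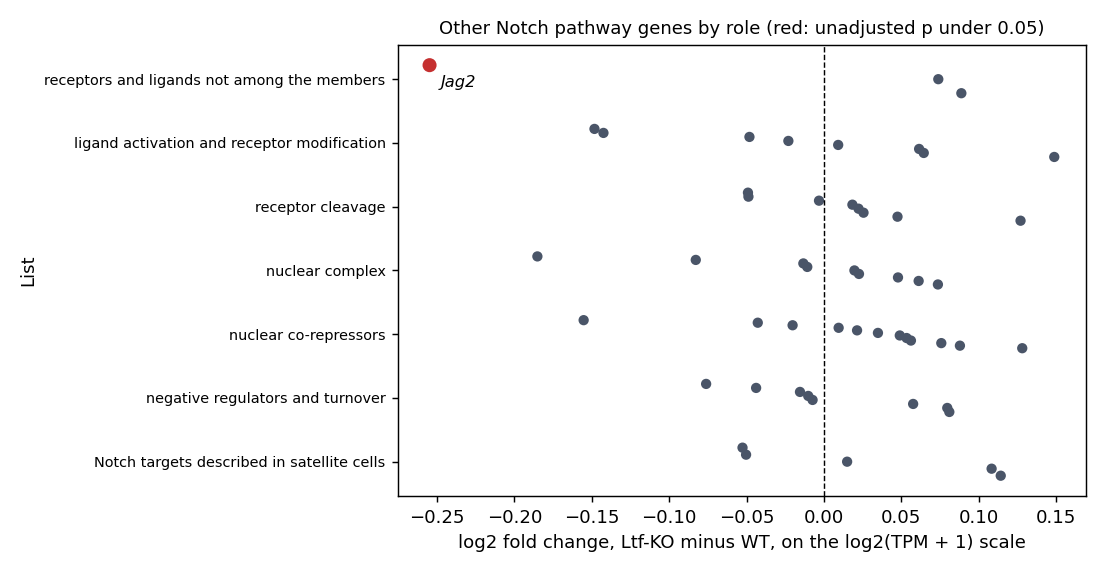
Log2 fold change of *Ltf*-KO against WT for each tested gene of 7 lists of other Notch pathway genes, a row per list, with dots spread vertically for legibility and the dashed line at no difference. All 53 dots lie from -0.255 to 0.149, those of every list fall on both sides of the line, and *Jag2* (red) is the gene at an unadjusted p under 0.05.

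Since the genotypes did not separate the 10 genes, the libraries were also ordered by each gene, a description chosen after the values were seen. For *Notch1*, *Notch3*, *Hes6* and *Heyl*, the lowest libraries were WT replicate 3 and *Ltf*-KO replicate 2, which belong to different genotypes. The same pair was lowest for 1065 of the 12956 genes tested (8.22%). For *Jag1* this pair was highest, as it was for 1365 genes (10.5%). *Hes6* and *Heyl* were highest in WT replicate 2 and *Ltf*-KO replicate 3, a pattern whose share over all genes was not counted.

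These orders ran beside those of marker genes in the same libraries. The summed TPM of 15 muscle differentiation markers, led by *Mylpf* at 1041 TPM and *Acta1* at 977 TPM, was 3798, 4831 and 3545 in WT and 4134, 3578 and 5633 in *Ltf*-KO libraries. From highest to lowest this is the order of *Hes6* in all 6 libraries, and the share of all genes with this order was not counted. The match includes near ties. *Hes6* was at 477.30 TPM in WT replicate 2 and 477.17 TPM in *Ltf*-KO replicate 1, and the 2 lowest sums were 3545 and 3578 TPM. Of the 15 differentiation markers, 14 were highest in WT replicate 2 and *Ltf*-KO replicate 3, with no count over all genes to set beside it. The markers lowest in WT replicate 3 and *Ltf*-KO replicate 2 numbered 10, beside 8.22% of all genes. All 15 had higher means in *Ltf*-KO, beside 55.7% of all genes tested with a positive log2 fold change. Their median log2 fold change was 0.14, with 0 at an unadjusted p under 0.05. The sum of 10 SC and myoblast markers varied little, from 2494 to 2589 TPM, and followed the same order, but not every marker did. *Cdh15*, *Itga7*, *Vcam1* and *Des* were highest in *Ltf*-KO replicate 3 and WT replicate 2. *Pax7* was lowest in *Ltf*-KO replicate 3, at 36.62 TPM, and highest in *Ltf*-KO replicate 2, at 43.3 TPM. *Myf5* was also lowest in *Ltf*-KO replicate 3, and *Myod1* was lowest in WT replicate 2. The part of differentiation in the level of *Hes6* was not tested.

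*Jag1* ran beside markers of other cell types. The 6 endothelial markers summed to 7.76, 5.95 and 15.76 TPM in WT and 12.24, 14.64 and 6.10 TPM in *Ltf*-KO libraries, with 4 of the 6 at a mean of 1 TPM or more and *Cdh5* and *Emcn* highest at 3.26 ± 1.46 and 2.60 ± 1.45 TPM. The 5 Schwann cell markers, all above 1 TPM and led by *Ngfr* at 13.3 ± 2.89 TPM, summed to 21.06, 28.32 and 37.36 TPM in WT and 28.93, 37.06 and 25.23 TPM in *Ltf*-KO libraries. WT replicate 3 and *Ltf*-KO replicate 2 were thus highest for *Jag1* and for both sums, and *Ltf*-KO replicate 1 came next in each. The same pair was lowest for the summed differentiation markers, at 3545 and 3578 TPM. WT replicate 1, lowest for *Jag1* at 10.05 TPM, came next lowest for that sum at 3798 TPM. The orders were thus not opposite over all libraries. Gene by gene, WT replicate 3 and *Ltf*-KO replicate 2 were highest for 4 of the 6 endothelial and 5 of the 5 Schwann cell markers. The sort was for SCs, with a stated gate of Sca1-, CD11b-, CD34+ and α7-integrin+. CD31 and CD45 were also stained, but the study's methods state no gate on them. The part of endothelial, Schwann or other cells in the level of *Jag1* was not tested. Fibroblast markers summed to 8.31 to 14.88 TPM in WT and 12.50 to 20.47 TPM in *Ltf*-KO libraries. *Col1a1* was at 5.98 ± 1.95 and *Dcn* at 4.255 ± 1.93 TPM, and 3 of 8 markers were under 0.1 TPM. Their sum was highest in *Ltf*-KO replicates 2 and 1, at 20.47 and 16.21 TPM, followed by WT replicate 3. As for *Jag1*, WT replicate 1 was lowest. The 4 fibroblast markers tested were all higher in *Ltf*-KO, with a median log2 fold change of 0.317 and 0 at an unadjusted p under 0.05. Smooth muscle and pericyte markers other than *Notch3* summed to 36.47 to 37.51 TPM in WT and 34.01 to 44.25 TPM in *Ltf*-KO libraries, nearly all of it *Cspg4* at 35.0 ± 3.64 TPM. This sum was highest in *Ltf*-KO replicate 2, where *Notch3* was second lowest. Leukocyte markers summed to 9.48 to 11.92 TPM over the 6 libraries, with *Cd14* at 7.29 ± 0.730 and *Cd68* at 3.53 ± 0.279 TPM. The leukocyte sum, like *Jag1*, was highest in *Ltf*-KO replicate 2 and WT replicate 3, at 11.92 and 11.77 TPM. Proliferation markers, led by *Cdk1* at 353.8 ± 19.9 and *Pcna* at 296.9 ± 7.86 TPM, summed to 1237 to 1346 TPM in WT and 1221 to 1300 TPM in *Ltf*-KO libraries. Of the 8, 7 had lower means in *Ltf*-KO, beside 5736 of the 12956 genes tested with a negative log2 fold change. The median log2 fold change of the 8 was -0.03, with 0 at an unadjusted p under 0.05. The libraries of 3, *Pcna*, *Mcm2* and *Mcm5*, did not overlap between genotypes, beside 8.46% of all genes, and the lowest unadjusted p was 0.0507 by limma, for *Pcna*.

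**Figure D4:**
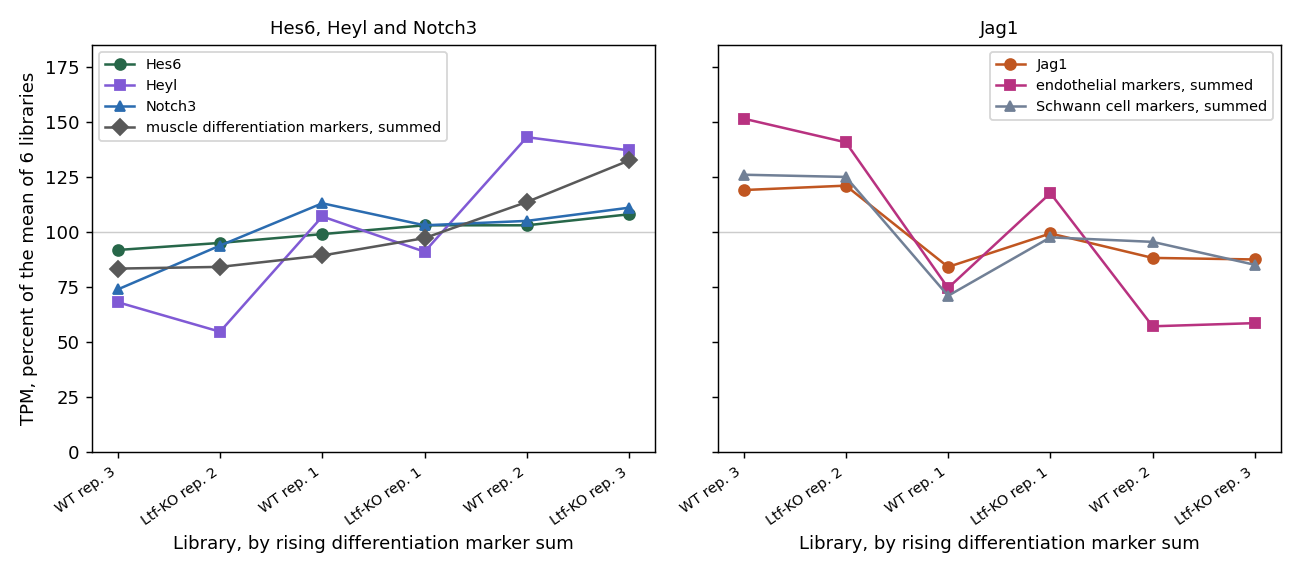
TPM as percent of the mean of 6 libraries, with libraries ordered by rising sum of differentiation markers, for *Hes6*, *Heyl*, *Notch3* and that sum (left) and for *Jag1* and the sums of endothelial and Schwann cell markers (right). *Hes6* runs from 91.8% to 108% and *Heyl* runs from 54.7% to 143% in libraries of both genotypes, and *Jag1* is highest, at 119% and 121%, in WT replicate 3 and *Ltf*-KO replicate 2.

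*Heyl* and *Jag1* had the largest spread of log2(TPM + 1) over the 6 libraries, and the tested genes most like them were looked up by Pearson's r over the same 6 libraries, which share sorting, culture and scaling. *Heyl* was followed by *Atp5a1*, a subunit of mitochondrial ATP synthase (r = 0.990), *2610507I01Rik* (r = 0.982) and *Rnpc3*, a minor spliceosome protein (r = 0.978), and 33 genes had r over 0.95. *Jag1* was followed by *Tnfrsf12a*, the receptor of the cytokine TWEAK (r = 0.994), *Atp6v0b*, a proton pump subunit (r = 0.992), and *Gm12854* (r = 0.991), and 87 genes had r over 0.95. Their spans differed widely, with *Atp5a1* between 667.29 and 708.29 TPM where *Heyl* varied 2.61-fold. *Gm12854* was listed at 0 TPM in WT replicates 1 and 2 and *Ltf*-KO replicate 3. It passed the filter only through WT replicate 3 at 4.54 TPM and *Ltf*-KO replicates 1 and 2 at 1.5 and 4.86 TPM, where *Jag1* was high. With 6 libraries and 12956 genes searched, these values describe the libraries and carry no test.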

How the data were processed

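RNA of SCs from WT and *Ltf*-KO mice was sequenced in 3 libraries per genotype after 4 days of growth. The authors deposited TPM values for 55416 genes, extracted and normalized by the sequencing company. GRCm39 is the build in the submitters' processing notes. Aligner, counting tool, annotation release and depth are not given in the sources used here, so no interval for counting error is given.

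Groups and replicate numbers came from the sample titles. *Ltf*-KO was compared with WT by limma 3.58.1 in R 4.3.3 (lmFit, eBayes with trend, two-sided, no covariate) on log2(TPM + 1) for genes averaging 1 TPM or more. Adjustment followed Benjamini and Hochberg over all genes tested, and the threshold was 0.05. Fits were tested on simulated data.

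The 10 genes and all lists were chosen with earlier results of these data known. Named were *Ltf*, the 10 genes, the most abundant gene of each list and those at an unadjusted p under 0.05, the 2 most abundant of each marker list, and the 3 genes most like *Heyl* and *Jag1*. Others were chosen after their values were seen. The values of 1 marker gene are not reported here. Positions came from GENCODE M21 (GRCm38). Alternatives were a pseudocount of 0.1, no filter, a mean of at least 10 TPM, quantile and median-of-ratios normalization, a replicate block, and each library left out.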

Additional observations from a re-analysis of the deposited data

How the results depend on the processing

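With a pseudocount of 0.1, quantile or median-of-ratios normalization, no filter, a mean of at least 10 TPM or a replicate block, 0 genes passed an adjusted p under 0.05, and leaving out each library gave 0 to 7. None of these was among the 10 Notch pathway genes, whose lowest adjusted p over the 12 fits was 0.946 and lowest unadjusted p 0.0574 by limma, for *Numb* without WT replicate 2. Genes at an unadjusted p under 0.05 numbered 490, 281 with a mean of at least 10 TPM, 890 with no filter, and 446 to 613 with a library left out. The share of them higher in *Ltf*-KO was 53.1%, 40% with quantile and 44.2% with median-of-ratios normalization.

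Of 116 refits of the 10 genes, 105 kept the direction and 11 turned it, each of the 11 with a library left out. The log2 fold changes then ran from -0.115 to 0.0948 for *Notch1* (turned without WT replicate 1, *Ltf*-KO replicate 1 or 2), -0.0769 to 0.191 for *Notch3* (WT replicate 3), -0.112 to 0.0148 for *Dll1* (*Ltf*-KO replicate 2), -0.0405 to 0.222 for *Jag1* (WT replicate 1 or *Ltf*-KO replicate 2), -0.0475 to 0.0328 for *Hes1* (WT replicate 2 or *Ltf*-KO replicate 3) and -0.37 to 0.0986 for *Heyl* (WT or *Ltf*-KO replicate 2). The 10 genes held 0 to 1 whose libraries did not overlap when a library was left out. These were *Notch2* without *Ltf*-KO replicate 1, *Hey1* without *Ltf*-KO replicate 2 and *Numb* without WT replicate 2. With fewer libraries, groups that do not overlap arise more readily, and their share over all genes was not counted in these fits. Of the other pathway lists, 1 gene had an unadjusted p under 0.05, 2 with no filter (*Jag2* and *Ncor1*), and 1 to 2 with a library left out (*Mib2* joined without WT replicate 3). *Notch1*, *Notch3*, *Hey1* and *Heyl* have no value at a mean of at least 10 TPM.

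Same-numbered libraries of the genotypes did not deviate together (correlations -0.0413, -0.0582 and -0.0875). The values thus gave no sign of a pairing by number. They cannot show whether such libraries were prepared together, which the labels do not say. With the replicate block 380 genes had an unadjusted p under 0.05, and 0 of the 10. With 3 libraries per genotype and unknown depth, small differences in the low genes *Hey1* and *Heyl* were not detectable.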
